A study of Homo sapiens with 12 samples.

Results

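The genes described here lie on the short arm of human chromosome 8 (8p) and were chosen by the difference of their transcript levels between knockout and wild-type HepaRG cells under 3 treatments, which earlier results on these data had shown to be negative for most of them. A list of 60 symbols was given, and 57 of them have an entry in the expression table of 15822 loci; ARHGEF10, ENTPD4 and DCTN6 were not analysed here. All 57 members passed the filter on low values (at least 1 CPM in at least 2 libraries), as did 15792 of the 15822 loci. Placed by symbol on the GENCODE 29 annotation of GRCh38, all 57 lie on the short arm of chromosome 8. They run from ZNF596 near the telomere to TACC1 towards the centromere and make up 57 of the 149 tested loci placed on that arm. Counts and orders of loci on an arm cover placed loci only, which were 13196 of the 15792 tested. Because the genotype difference chose the members, it is given for them as a description, with no test.

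HepaRG is an established human liver tumour line that can mature into cells resembling hepatocytes and bile duct epithelium. RNA was sequenced in 12 libraries: wild-type cells (WT) and cells labelled hCAR-KO (KO), a knockout of the constitutive androstane receptor, each under the solvent DMSO, phenobarbital (PB) or CITCO. PB is a barbiturate that activates this receptor indirectly, and CITCO is a synthetic agonist of it. Each of the 6 groups holds 2 libraries, and all cells are of the HepaRG line. The sources used here state neither the doses and exposure times nor how the receptor was disrupted, nor whether the KO cells derive from 1 clone. The labels do not say that duplicates came from separate cultures, so that a p-value reflects the spread from library to library alone, and that spread may be technical.

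The genes of a chromosome arm share 1 stretch of DNA, and each autosomal gene on it is normally present as a maternal and a paternal copy. The transcript level of many genes follows the number of copies, so that gain or loss of a stretch of chromosome shifts neighbouring genes of unrelated function together, while feedback can hold some genes at their former level. The short arm of chromosome 8 is often lost in liver cancer and carries DLC1, a tumour suppressor studied in liver cancer. This is background: the data are RNA levels, and DNA copy number was not analysed here.

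Levels are given as CPM, the authors' normalized reads per 1e6 reads of an adjusted library size. Differences are KO minus WT on the scale log2(CPM + 0.5), on which a value of -1 is close to a 2-fold lower level. The summed CPM, divided by 1e6, was 1.07 to 1.11 in WT libraries. It was 0.900 to 0.935 in KO libraries. The WT libraries held 49.3 to 66.5 times 1e6 reads at the loci; the depth of the KO libraries was not recovered. Scaling each library to its total instead moves the median difference of all loci upwards by 0.247 (DMSO), 0.239 (PB) and 0.233 (CITCO), and the differences given here keep the deposited scaling unless totals are named. NR1I3, which encodes the targeted receptor, read 9.33 to 15.5 CPM in WT and 9.63 to 16.2 CPM in KO libraries, and its transcript level therefore does not check the genotype. Of the hepatocyte markers, 7 of 8 were in the table, none at 0 in any library; their summed level was 138009 to 155563 CPM in WT and 54640 to 57855 CPM in KO libraries, with 5 of the 7 lower in KO without overlap. Of the biliary and progenitor markers, 4 of 6 were in the table, with sums of 377 to 467 and 104 to 121 CPM, most of it KRT19 (403 and 71.7 CPM on average); KRT19 and SOX9 were lower and KRT7 and SPP1 higher in KO without overlap, and the list's median difference was -0.03. Of the mesenchymal markers 3 of 6 were in the table, with sums of 48.5 to 60.6 and 47.7 to 60.5 CPM, and the 5 proliferation markers summed to 200 to 260 and 436 to 545 CPM. The hepatocyte sum was thus lower and the proliferation sum higher in KO libraries, and the biliary markers were split; their part in the members' differences was not tested, and in bulk RNA fewer cells of a type and less RNA per cell cannot be told apart.

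Most members were lower in KO than in WT cells under each of the 3 treatments. Per member, the KO mean had a median of 50.2% of the WT mean, from 6.31% (STC1) to 102% (FGL1). Their median difference was -0.95 under DMSO (quartiles -1.19 and -0.69), -0.97 under PB (-1.24 and -0.70) and -0.97 under CITCO (-1.22 and -0.69). Over all 15792 loci tested the medians were -0.003, 0.003 and -0.003, with quartiles of -0.28 and 0.27 under DMSO. The share of the whole signal taken by the members was 0.691 to 0.709% in the 6 WT libraries and 0.323 to 0.329% in the 6 KO libraries, so that no KO library reached a WT library. This share is weighted towards abundant members. The members summed to 7427 to 7792 CPM in WT and 2910 to 3032 CPM in KO libraries. Of these sums CLU alone gave 2806 to 3026 and 620 to 725 CPM.

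Under DMSO both KO libraries lay below both WT libraries for 55 of 57 members, against 38.9% of all loci tested. Under PB the count was 55 (39.2% of all loci), under CITCO 55 (40.5%), and with all 6 KO libraries set against all 6 WT libraries 55 again (24.7%). No member had all 6 KO libraries above all 6 WT libraries, against 3892 of the 15792 loci tested. These counts use the difference that chose the members and are read no further. The mean difference over the 3 treatments was below 0 for 55 members (96.5%, against 50.01% of all loci tested), below -0.5 for 53 (93.0%, against 13.4%) and within 0.5 of -1 for 47 (82.5%, against 12.1%), of which 28 lay within 0.25 of -1. Only 6 members had a mean difference below -1.5, and 13 lay between -0.75 and 0.

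**Figure D1:**
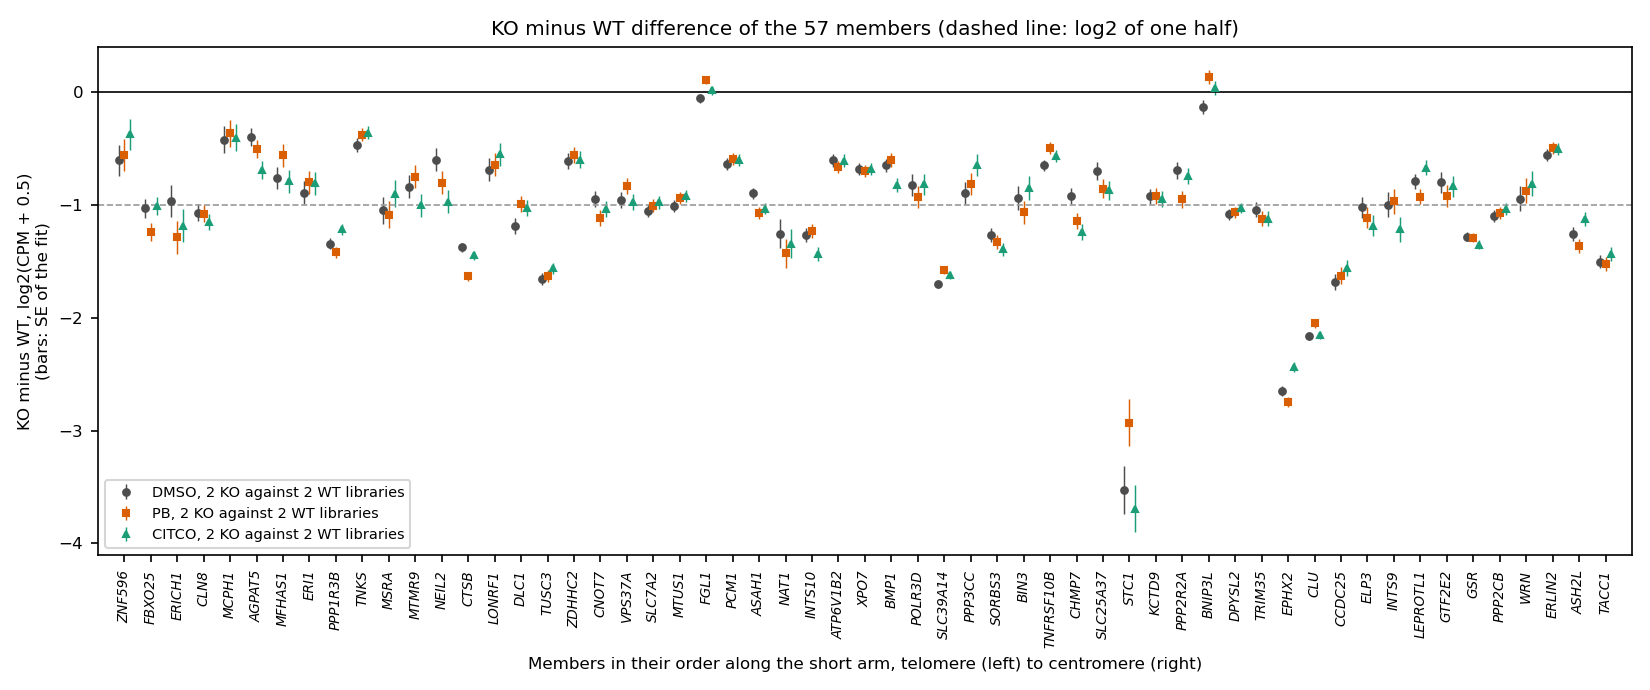
KO minus WT difference of each of the 57 members on the log2(CPM + 0.5) scale, in their order along the arm, under DMSO (circles), PB (squares) and CITCO (triangles); bars are standard errors of the limma fit, from 2 KO against 2 WT libraries per point, and the dashed line marks -1. Most points lie in a band around the dashed line; STC1, EPHX2 and CLU lie under -2, and FGL1 and BNIP3L lie near 0.

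The spread between duplicates was small beside these differences. Over the 342 pairs of duplicates (57 members in 6 groups) the SD on the log2 scale had a median of 0.0404 and was under 0.25 in 98.8% of pairs; the highest was 0.583. A member's difference also varied little across treatments: the range over the 3 treatments had a median of 0.16, stayed under 0.25 for 46 members and was widest for STC1 at 0.76. The map of members by library shows the split between the genotypes in single libraries.

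**Figure D2:**
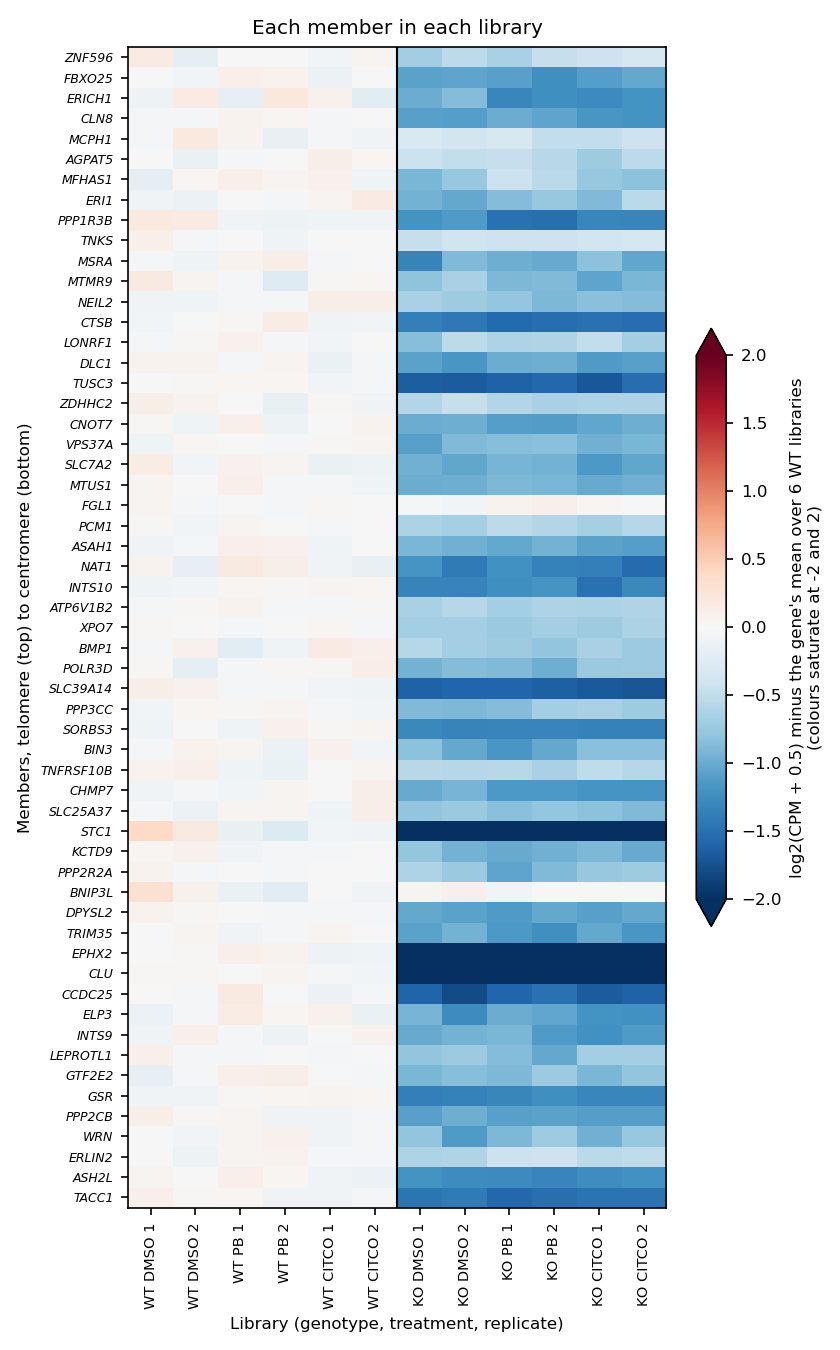
Level of each member (in order along the arm, top to bottom) in each of the 12 libraries, as log2(CPM + 0.5) minus that gene's mean over the 6 WT libraries; blue is lower, red is higher, and colours saturate at -2 and 2. The 6 KO columns are blue throughout for 55 members, while FGL1 and BNIP3L are near white in all of them.

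Enzymes of metabolism and redox balance held 8 of the members, with a median difference of -1.32 and a span from -2.61 (EPHX2) to -0.53 (AGPAT5); all 8 were lower in KO without overlap. EPHX2, the soluble epoxide hydrolase that turns fatty acid epoxides into diols (chromosome 8, 27490779 to 27545564, plus strand), read 215, 234 and 249 CPM (lowest, median and highest of the WT libraries) and 35.6, 36.9 and 39.6 CPM in KO libraries. The highest KO library was thus far below the lowest WT library, and the mean level was 6.17-fold lower in KO. Its difference was -2.65 under DMSO, -2.74 under PB and -2.43 under CITCO (SE 0.043 each). It lay well below the band of the other enzymes.

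CTSB encodes the lysosomal protease cathepsin B (11842524 to 11869448, minus strand). It read 743, 772 and 867 CPM in WT and 266, 274 and 304 CPM in KO libraries, a mean difference of -1.48. PPP1R3B, the liver subunit that brings protein phosphatase 1 to glycogen, read 88.9, 90.5 and 109 CPM in WT and 33.2, 38.3 and 43.3 CPM in KO (-1.33). GSR, the reductase that regenerates glutathione, read 189, 203 and 207 CPM in WT and 77.2, 80.3 and 85.2 CPM in KO (-1.31). The genotypes did not overlap for any of these 3, and each stood between 35.7 and 40.2% of its WT level.

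NAT1, an arylamine N-acetyltransferase of drug metabolism, read 7.95, 8.94 and 10.2 CPM in WT and 2.73, 3.17 and 3.68 CPM in KO libraries (-1.34). NAT1 has a close paralog, NAT2, on the same arm, and how reads shared by the pair were counted is not given in the sources used here. ASAH1, the acid ceramidase, read 93.7, 98.6 and 108 CPM in WT and 46.2, 49.9 and 52.5 CPM in KO (-1.0). MSRA, which reduces oxidised methionine, read 15, 15.6 and 17.2 CPM in WT and 6.02, 7.72 and 8.85 CPM in KO (-1.01). Both stood close to 50% of WT (49.7 and 48.3%). AGPAT5, an acyltransferase of phospholipid synthesis, was the least shifted enzyme, with 23.4, 25.9 and 27.8 CPM in WT and 15.5, 17.9 and 19 CPM in KO, still without overlap.

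The 4 secreted proteins spanned the widest range of all role groups, from -3.38 to 0.02 with a median of -1.41. STC1, the hormone-like glycoprotein stanniocalcin 1 (23841915 to 23854807, minus strand), read 10.3, 11.9 and 16.8 CPM in WT and 0.419, 0.634 and 1.48 CPM in KO libraries. It was the lowest member relative to WT, at 6.31% of the WT level, a 15.8-fold lower mean. Its KO levels are close to the pseudocount of 0.5, and its mean difference was -3.93 with a pseudocount of 0.1 and -2.39 with one of 2. CLU, the extracellular chaperone clusterin (27596917 to 27615031, minus strand), read 2806, 2954 and 3026 CPM in WT and 620, 672 and 725 CPM in KO, 4.35-fold lower. CLU follows EPHX2 in the order of members, on the opposite strand, and both differences were below -2 under all 3 treatments.

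BMP1, the protease that trims procollagen, read 74.7, 88.4 and 97.2 CPM in WT and 50.04, 53.4 and 58.1 CPM in KO (-0.69). FGL1, a hepatocyte-secreted fibrinogen-like protein (17864380 to 17910365, minus strand), did not follow most of the other members. It read 407, 417 and 437 CPM in WT and 405, 427 and 447 CPM in KO libraries, and the genotypes overlapped. Its difference was -0.05 under DMSO, 0.11 under PB, where both KO libraries lay above both WT libraries, and 0.02 under CITCO, and its mean KO level was 102% of WT. With every library scaled to its total the mean difference of FGL1 was 0.28.

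Membrane transport, lysosome and membrane traffic formed a group of 12 members with a median of -0.86, of which 11 were lower in KO without overlap. SLC39A14, a zinc, iron and manganese importer of hepatocytes (22367249 to 22434129, plus strand), read 553, 572 and 633 CPM in WT and 179, 189 and 195 CPM in KO (-1.63). TUSC3, a subunit of the oligosaccharyltransferase that also serves magnesium transport, read 156, 162 and 166 CPM in WT and 49.7, 51.8 and 56.1 CPM in KO (-1.62). Both stood at 32% of WT (32.1 and 32.4%). SLC7A2, a carrier of arginine and lysine, read 134, 147 and 163 CPM in WT and 66.1, 73.2 and 77.2 CPM in KO (-1.01).

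Parts of the membrane-remodelling ESCRT machinery lay nearer to -1: CHMP7 at -1.10 and VPS37A at -0.92. The lysosomal proton pump subunit ATP6V1B2 (-0.63), the palmitoyltransferase ZDHHC2 (-0.59) and ERLIN2, a scaffold for degradation in the endoplasmic reticulum (-0.52), were shifted least among the lower members of the group. ERLIN2 read 46.8, 49.7 and 52.6 CPM in WT and 32.4, 34.7 and 37.2 CPM in KO libraries, without overlap. CLN8, which exports lysosomal enzymes from the endoplasmic reticulum, lay at -1.10, the mitochondrial iron carrier SLC25A37 at -0.81 and LEPROTL1, a membrane traffic protein, at -0.79. BNIP3L, a receptor for the removal of mitochondria (26382898 to 26505636, plus strand), was the exception. It read 62.4, 70.4 and 89.5 CPM in WT and 69.0, 72.1 and 77.0 CPM in KO libraries, all KO values inside the range of the 6 WT libraries. Its difference was -0.13 under DMSO, 0.13 under PB and 0.03 under CITCO; within PB and within CITCO both KO libraries lay above both WT libraries. Its mean was 0.27 with every library scaled to its total. Its neighbours in the order of members, PPP2R2A (-0.80) and DPYSL2 (-1.06), were both lower in KO without overlap.

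All 14 members among the phosphatases, receptors, signalling regulators and cytoskeleton proteins were lower in KO without overlap, with a median of -0.95 and a span from -1.62 (CCDC25) to -0.57 (TNFRSF10B). CCDC25, a membrane protein that binds extracellular DNA, read 67.5, 72.2 and 83.1 CPM in WT and 20.8, 23.7 and 25.6 CPM in KO. DLC1, the tumour suppressor named above, read 28.8, 32.0 and 33.3 CPM in WT and 13.9, 14.7 and 15.8 CPM in KO (-1.07), 46.8% of WT. TNFRSF10B, a death receptor for TRAIL, read 94.8, 106 and 112 CPM in WT and 65.8, 70.2 and 72.7 CPM in KO. Of the phosphatase subunits, PPP2CB, a catalytic subunit of phosphatase 2A, lay at -1.07, its regulatory subunit PPP2R2A at -0.80, the calcineurin subunit PPP3CC at -0.79 and the lipid phosphatase family member MTMR9 at -0.86. The centrosome and spindle proteins spanned TACC1 (-1.49), the microtubule-associated MTUS1 (-0.96) and the centriolar satellite protein PCM1 (-0.61). The remaining 4 were the adhesion adaptor SORBS3 (-1.33), the semaphorin signalling protein DPYSL2 (-1.06), the membrane-curving BIN3 (-0.95) and MFHAS1 (-0.70).

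Transcription, RNA processing and DNA repair gave 14 members, all lower in KO without overlap, with a median of -0.85 and a span from -1.31 to -0.40. The Integrator complex, which cleaves nascent snRNA, was represented by INTS10 (-1.31) and INTS9 (-1.06). ASH2L, a core subunit of histone H3 lysine methyltransferases, lay at -1.25, the Elongator subunit ELP3 at -1.10 and the deadenylase CNOT7 at -1.03. CNOT7 and VPS37A overlap on opposite strands in the annotation, and without knowledge of strand in the counting their shared reads cannot be told apart. The helicase WRN lay at -0.88, POLR3D, a subunit of RNA polymerase III, at -0.86, the general transcription factor GTF2E2 at -0.85, the exonuclease ERI1 at -0.83, the repair glycosylase NEIL2 at -0.79 and the nuclear transport receptor XPO7 at -0.69. The least shifted of the 55 lower members were also here. TNKS, a poly-ADP-ribosylating enzyme at telomeres, read 45.7, 47.7 and 51.3 CPM in WT and 34.5, 36.1 and 37.6 CPM in KO (-0.40), and MCPH1, a chromosome condensation protein, read 6.04, 6.64 and 7.86 CPM in WT and 4.66, 5.06 and 5.40 CPM in KO (-0.40). Neither overlapped between genotypes. ZNF596, a zinc finger protein, lay at -0.51, with 3.86 to 5.02 CPM in WT and 2.53 to 3.38 CPM in KO libraries.

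The last 5 members were the ubiquitin ligase subunits and related genes FBXO25 (-1.09), KCTD9 (-0.93), TRIM35 (-1.10) and LONRF1 (-0.63) together with ERICH1 (-1.14), with a median of -1.09. All 5 were lower in KO without overlap. FBXO25, an F-box protein, can stand for them with 22.1, 24.0 and 25.7 CPM in WT and 9.95, 11.1 and 11.6 CPM in KO.

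Along the arm, in bins of 10 Mb (GRCh38), the bin next to the telomere had the least negative median of the members and the other 3 medians lay between -1.01 and -0.97. The first 10 Mb held 10 members with a median of -0.77, and the stretch from 10 to 20 Mb 17 members with -1.0. That from 20 to 30 Mb held 22 members with -1.01, and the rest up to the centromere near 45 Mb 8 members with -0.97. The last of these 8, TACC1, ends at 38853028, so that this median does not cover the loci next to the centromere. Both members near 0, FGL1 and BNIP3L, lay in the middle bins, and the members next to each of them were lower in KO. The locus directly after BNIP3L, PNMA2, which is no member, was higher in KO without overlap (0.37); its annotation overlaps BNIP3L on the opposite strand, so that shared reads cannot be told apart. The 29 members with a mean WT level of at least 44.5 CPM had a median of -1.06 and the 28 under it one of -0.86; over all loci split at the same level the medians were -0.07 and 0.03 (CPM is not corrected for length). The 36 members on the plus strand had a median of -0.86 and the 21 on the minus strand one of -1.06.

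The other 92 tested loci of the arm, which were not listed, were lower as well, though less uniformly. Their median mean difference was -0.78 (quartiles -1.21 and -0.38), against -0.96 (-1.14 and -0.70) for the members. Of the 92, 63 (68.5%) lay below -0.5. Without overlap 70 were lower in KO (against 24.7% of all loci tested) and 10 higher (against 3892 of all 15792 loci). The 14 that lay above 0 reached 1.62, and 9 of these 14 had a mean WT level under 5 CPM, as did 21 of the 92. By bin their medians were -0.81 (11 loci), -1.21 (17), -0.70 (30) and -0.71 (34) from the telomere to the centromere. Since the members were picked for their difference, the gap between the 2 sets is a description.

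The long arm had a median near 0. The 299 tested loci of 8q had a median mean difference of 0.06 (quartiles -0.17 and 0.32). Of these, 31 (10.4%) lay below -0.5, and 59 were lower and 96 higher in KO without overlap. Over all 15792 loci tested 13.4% lay below -0.5, and 3902 (24.7%) were lower and 3892 higher without overlap. Next to the centromere the differences of the short arm were smaller. VDAC3, a mitochondrial outer membrane channel, still lay at -1.07; of the following loci of the arm SLC20A2 lay at -0.23, SMIM19 at -0.59, THAP1 at 0.18, RNF170 at -0.28, HOOK3 at 0.32, POMK at 0.56 and HGSNAT, the last one, at -0.32. The last 10 tested loci of 8p had a median of -0.30 with 7 below 0, and the 139 before them one of -0.88 with 126 below 0. The first 20 loci of 8q had a median of 0.17 with 5 below 0. No place of change was tested, and these windows were chosen after the values were seen.

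**Figure D3:**
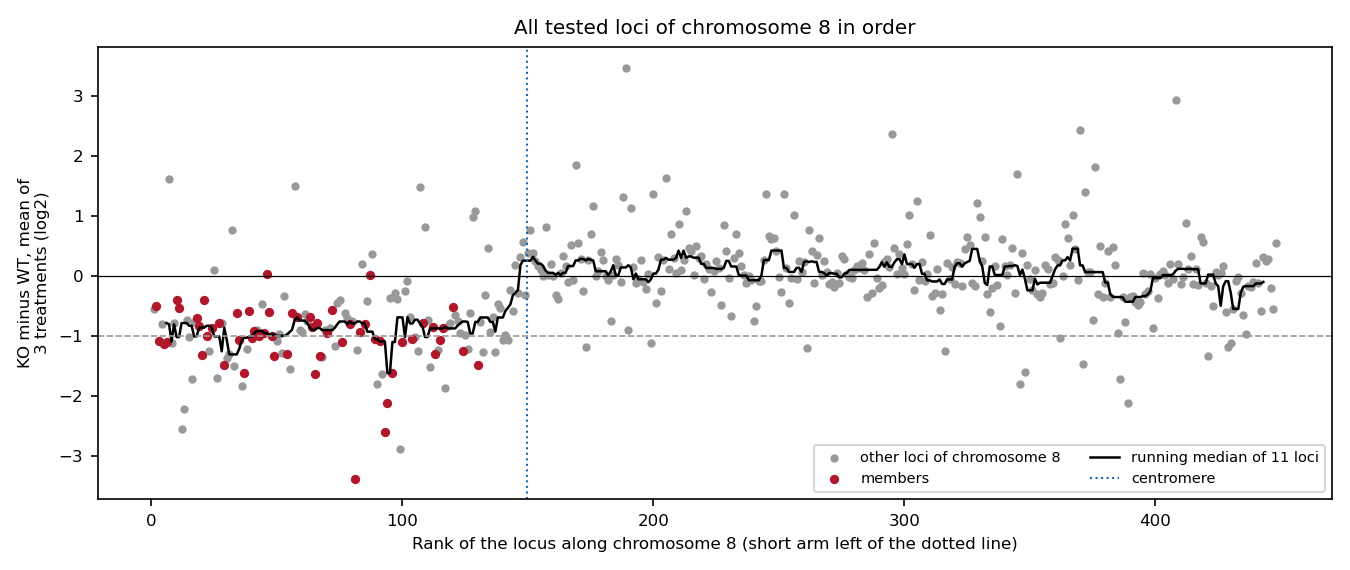
Mean KO minus WT difference over the 3 treatments (log2) of every tested locus placed on chromosome 8, by rank along the chromosome. Members are red and other loci grey, the line is a running median of 11 loci and the dotted line the centromere. The running median stays well below 0 over most of the short arm and is near 0 on the long arm, where the median of the 299 loci is 0.06.

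Among 41 chromosome arms with at least 30 tested loci, the short arm of chromosome 8 had the lowest median, -0.86 over its 149 loci. This median includes the members, which were chosen by the same difference; the 92 other loci alone gave -0.78. The next lowest arm was 10p at -0.38 (125 loci), and the highest were 10q at 0.32 (406 loci) and 12q at 0.38 (515 loci). The medians of 37 of the 41 arms lay within 0.25 of 0. With every library scaled to its total, the members' medians were -0.69, -0.73 and -0.72 under the 3 treatments, and -0.93, -0.97 and -0.96 relative to all loci. The same 2 members, FGL1 and BNIP3L, then lay above 0 and the other 55 below.

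**Figure D4:**
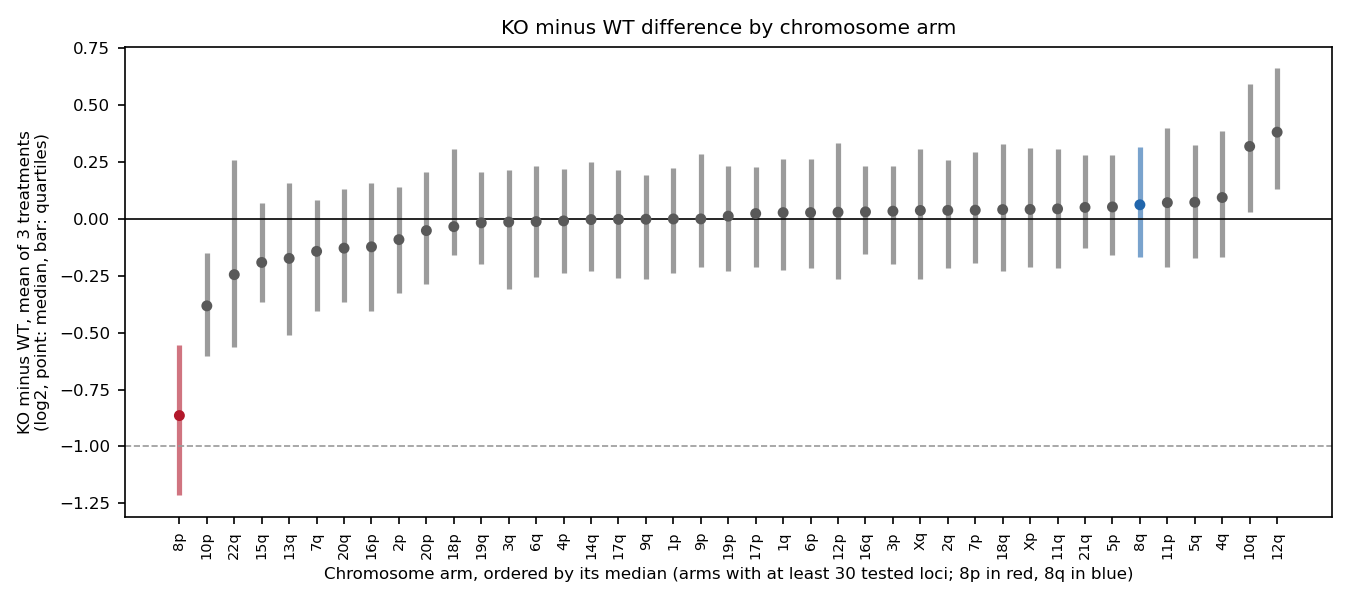
Median (point) and quartiles (bar) of the mean KO minus WT difference (log2) over the tested loci of each of 41 chromosome arms with at least 30 loci, ordered by the median. The short arm of chromosome 8 (red) lies at -0.86 and its long arm (blue) at 0.06; the dashed line marks -1.

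The drug responses within a genotype were not used to choose the members and were tested with limma over all 15792 loci, with Benjamini-Hochberg adjustment. The comparisons with DMSO in a genotype share its DMSO libraries, so that they are given side by side. In WT cells PB changed 4 members, all downwards (7.02% of the members, against 6.42% of all loci tested), and 12 had an unadjusted p under 0.05 (21.1%, against 18.9%). CITCO changed 2 in WT cells, both downwards (3.51%, against 2.2%), with 9 under an unadjusted 0.05 (15.8%, against 16.3%). In KO cells PB changed 5 members, 2 upwards and 3 downwards (8.77%, against 6.96%), with 13 under an unadjusted 0.05 (22.8%, against 18.02%). For CITCO in KO cells limma called 0 members (against 0.811% of all loci), with 11 under an unadjusted 0.05 (19.3%, against 11.04%); no count model was run on KO libraries. The shares called were near those of all loci. Median responses of the members were 0.03 (PB in WT), -0.02 (CITCO in WT), -0.03 (PB in KO) and -0.02 (CITCO in KO), and the median standard error was 0.069.

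PPP1R3B was the member with a called response in the most comparisons. It read 109 and 108 CPM under DMSO, 91.1 and 88.9 under PB and 89.7 and 89.98 under CITCO in WT libraries, and 41.5 and 43.3, 33.5 and 33.2, and 38.6 and 38.1 CPM in KO libraries. In both genotypes every treated library lay below both DMSO libraries. PB lowered it in WT (-0.27, SE 0.048, limma adjusted p = 0.00169) and in KO cells (-0.34, SE 0.048, limma adjusted p = 0.000127). CITCO lowered it in WT cells (-0.27, limma adjusted p = 0.00417), and in KO cells the estimate was -0.14 (limma adjusted p = 0.238). The call for PB in KO cells held in all 12 alternatives run, with adjusted p between 5.5e-05 and 0.00588. That for PB in WT cells was lost only in a fit of the libraries compared alone (limma adjusted p = 0.0618; 0.000308 to 0.0618 over 14 alternatives). The CITCO call in WT cells was lost without WT CITCO 1 (limma adjusted p = 0.0719) and without WT CITCO 2 (0.0583), with a constant prior variance (0.0519) and in the fit of the libraries compared alone (0.0533); the lowest of 14 alternatives gave 0.000741. The difference of responses between genotypes was not called for PB (-0.07, limma adjusted p = 0.825) or CITCO (0.13, limma adjusted p = 0.455).

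BNIP3L read 89.5 and 76.8 CPM under DMSO and 65.4 and 62.4 CPM under PB in WT libraries, a lower level under PB (-0.37, SE 0.061, limma adjusted p = 0.000617). Both PB libraries lay below both DMSO libraries. The call was lost only in the fit of the libraries compared alone (limma adjusted p = 0.0712), and the range over its 14 alternatives was 1.99e-05 to 0.0712. In KO libraries BNIP3L read 74.6 and 77.0 CPM under DMSO and 69.0 and 71.3 under PB (-0.11, limma adjusted p = 0.366), and the difference of responses was not called (0.26, limma adjusted p = 0.253).

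SLC39A14 read 633 and 622 CPM under DMSO, 568 and 576 under PB and 563 and 553 under CITCO in WT libraries. All 4 treated libraries lay below both DMSO libraries, and the responses were -0.13 for PB (SE 0.035, limma adjusted p = 0.0270) and -0.17 for CITCO (limma adjusted p = 0.0128). The PB call was lost without WT DMSO 1 (limma adjusted p = 0.131), WT PB 1 (0.101) or WT PB 2 (0.0543), and by edgeR (0.0752) and DESeq2 (0.0659). The CITCO call was lost without WT DMSO 1 (limma adjusted p = 0.113), WT CITCO 1 (0.0983) or WT CITCO 2 (0.178), and by edgeR (0.0602), and held by DESeq2 (0.0187). Both calls were also lost with a constant prior variance and in the fit of the libraries compared alone. Over 14 alternatives the adjusted p ranged from 0.0128 to 0.212 for PB and from 0.00882 to 0.182 for CITCO.

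TNFRSF10B read 109 and 112 CPM under DMSO and 98.03 and 94.8 CPM under PB in WT libraries (-0.19, SE 0.049, limma adjusted p = 0.0233). The PB libraries lay below the DMSO libraries. Its call was lost without WT DMSO 2 (limma adjusted p = 0.0964) or WT PB 2 (0.120), by edgeR (0.0596), with a constant prior variance (limma, 0.117) and in the fit of the libraries compared alone (0.184); the lowest of 14 alternatives gave 0.0129.

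In KO cells the other calls under PB were PPP2R2A, MFHAS1, CTSB and FGL1. PPP2R2A read 21.9 and 20.04 CPM under DMSO and 16.1 and 18.1 CPM under PB (-0.29, SE 0.074, limma adjusted p = 0.0212), and the call was lost without KO DMSO 1 (0.214) or KO PB 1 (0.299). MFHAS1 read 7.94 and 8.82 CPM under DMSO and 11.3 and 10.4 under PB (0.35, SE 0.10, limma adjusted p = 0.0415), and FGL1 408 and 405 CPM under DMSO and 442 and 447 under PB (0.13, SE 0.037, limma adjusted p = 0.0442). For these 3 members the DMSO and PB libraries did not overlap. The MFHAS1 call was lost without KO DMSO 1 (limma adjusted p = 0.284), KO DMSO 2 (0.0711), KO PB 1 (0.317) or KO PB 2 (0.109). The FGL1 call was lost on leaving out the same libraries (limma adjusted p = 0.137, 0.181, 0.178 and 0.274). With every library scaled to its total both were lost too (limma adjusted p = 0.0677 for MFHAS1 and 0.122 for FGL1). With a constant prior variance the calls of PPP2R2A, MFHAS1 and FGL1 were all lost. Over 12 alternatives the limma adjusted p ranged from 0.00871 to 0.299 for PPP2R2A, from 0.0283 to 0.317 for MFHAS1 and from 0.0198 to 0.274 for FGL1.

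CTSB was the 1 member whose PB response was called as different between the genotypes (-0.26, SE 0.058, limma adjusted p = 0.0366), against 1.01% of all loci tested, with 8 members under an unadjusted 0.05 (14.04%, against 9.64%). It read 755 and 788 CPM under DMSO and 800 and 867 CPM under PB in WT libraries (0.11, limma adjusted p = 0.136), and 304 and 291 CPM under DMSO and 266 and 271 CPM under PB in KO libraries (-0.15, limma adjusted p = 0.0337). Both PB libraries thus lay above both DMSO libraries in WT and below both in KO cells. The difference of responses lost its call without WT DMSO 1 (limma adjusted p = 0.114), WT PB 2 (0.128), KO DMSO 1 (0.160), KO DMSO 2 (0.0506), KO PB 1 (0.212) or KO PB 2 (0.138). The KO response lost its call without KO DMSO 1, KO PB 1 or KO PB 2. With a constant prior variance both calls were lost, and in the fit of the libraries compared alone that of the difference was lost. The adjusted p ranged from 0.00554 to 0.341 over 16 alternatives for the difference and from 0.00861 to 0.257 over 12 for the KO response. For the CITCO response limma called 0 members as different between genotypes, against 0.336% of all loci tested, with 4 under an unadjusted 0.05 (7.02%, against 12.6%); the median standard error of such a difference was 0.097.

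**Figure D5:**
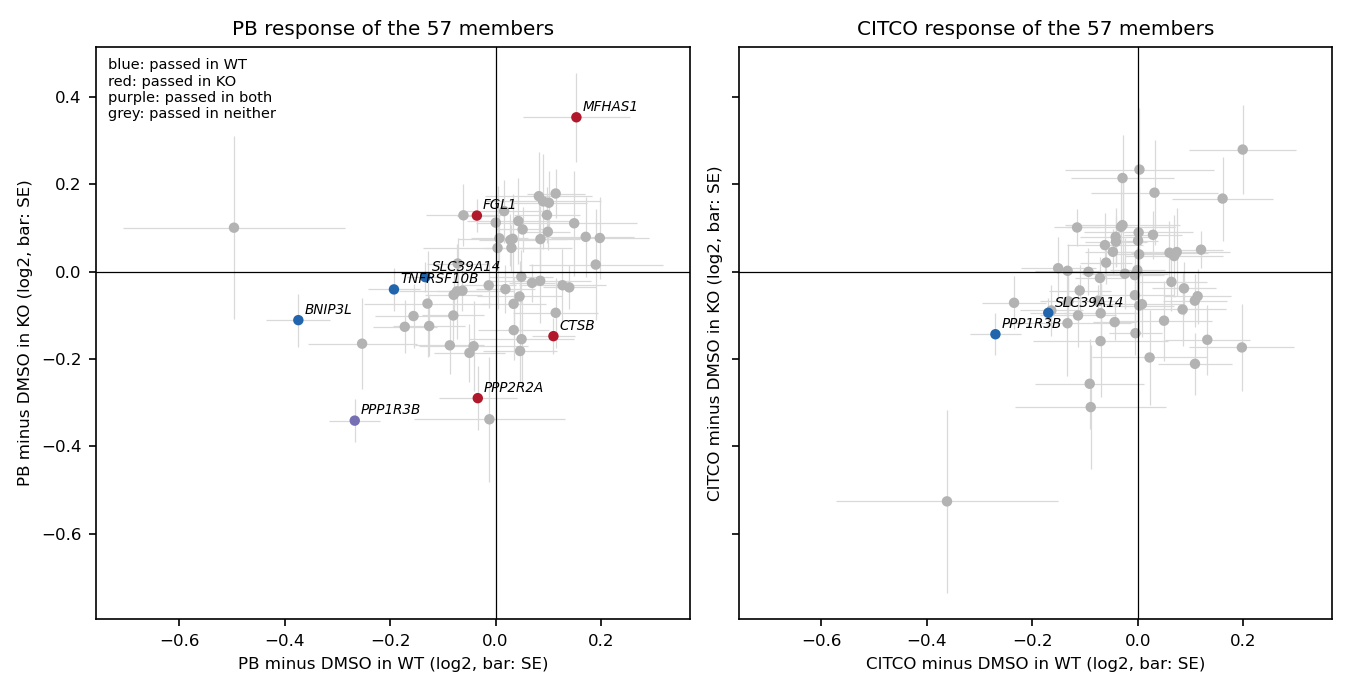
Response of the 57 members to PB (left) and CITCO (right) on the log2 scale, WT cells on the horizontal axis and KO cells on the vertical axis; each point is a member, bars are standard errors of the limma fit, and coloured points passed an adjusted p under 0.05 in WT (blue), KO (red) or both (purple). Most points lie within 0.2 of 0 on both axes, and PPP1R3B is the member called for PB in both genotypes.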

How the data were processed

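The 12 HepaRG libraries were grouped by the genotype and agent given in the labels, 2 per group. The authors deposited 1 expression table of 15822 loci whose name calls its values CPM; the deposited values are a normalized signal, since column totals differ from 1e6. Counts or plain CPM had been assumed when the tests were planned. Per the submitters' processing notes, which assign no roles, the tools were edgeR 2.12, Bowtie 1.0.0, TopHat2 2.0.10, Cuffdiff 2.1.1 and Cufflinks 2.1.1 and the builds GRCh38 and GRCh37; strandedness is not given in the sources used here. The deposited table gives no coordinates, so positions come from GENCODE 29 (GRCh38), by symbol, for 83.5% of loci. For a further 0.145%, whose symbols GENCODE lacks, they come from RefSeq. In the 6 WT libraries 100% of values were whole reads within 0.1 read, and only these libraries entered count models.

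Loci reaching 1 CPM in 2 or more libraries were tested with limma 3.58.1 (R 4.3.3) on log2(CPM + 0.5), 6 group means, the prior variance as a trend on expression, and Benjamini-Hochberg adjustment over all 15792 loci at 0.05; such differences understate the change of low genes. The code of the fit was run on simulated libraries with known changes, drawn independently at a fixed dispersion and depth. Such libraries cannot show how the fit handles variation shared between duplicates. Alternatives were pseudocounts of 0.1 and 2, no filter, at least 5 CPM in every library, scaling to totals, a constant prior variance, a fit of the compared libraries alone, a replicate block, leaving out each library, and edgeR 4.0.16 and DESeq2 1.42.0 on WT reads. Every member is given by role or place; values in single libraries are given for called members, and the lowest, median and highest per genotype for the 6 lowest and 6 highest by mean genotype difference with at least 5 CPM in a group and for liver-related members. TACC1, ZNF596, FBXO25 and BMP1 are described beside them. The members, role groups and marker lists were chosen with earlier results of these data known. The authors' tables of comparisons were not used here.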

Additional observations from a re-analysis of the deposited data

Results flagged for a closer look

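The PB response of CTSB, the gene of cathepsin B, differed between the genotypes by the test of the difference itself (-0.257 on the log2 scale, KO response minus WT response, limma adjusted p = 0.0366): both PB libraries lay above both DMSO libraries in WT cells and below both in KO cells. The call was lost in 8 of 16 alternatives, with limma adjusted p up to 0.341: on leaving out any 1 of WT DMSO 1, WT PB 2, KO DMSO 1, KO DMSO 2, KO PB 1 and KO PB 2, with a constant prior variance, and when the compared libraries were fitted alone. Groups of 2 libraries are too small to look for a library far from the others.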

How the results depend on the processing

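Members called for PB in WT cells numbered 4, and 2 with a constant prior variance, 0 when the compared libraries were fitted alone, 3 by edgeR, 4 by DESeq2 and 3 to 4 on leaving out 1 library. The 2 calls for CITCO in WT cells became 0 with a constant prior variance, 0 when the compared libraries were fitted alone, 1 by edgeR, 2 by DESeq2 and 0 to 4 on leaving out 1 library (4 without WT DMSO 2). The 5 calls for PB in KO cells became 3 with scaling to totals, 1 with a constant prior variance and 1 to 3 on leaving out 1 library. The 1 call for the difference of PB responses became 0 with a constant prior variance, 0 when the compared libraries were fitted alone and 0 to 2 on leaving out 1 library (2 without WT DMSO 2). Of all loci the constant prior variance called 3.4, 0.608, 3.88 and 0.158% in these 4 comparisons, and the cause was not tested. Medians of the members' KO minus WT difference were -0.69 (DMSO), -0.73 (PB) and -0.72 (CITCO) with scaling to totals, -0.91 for CITCO with a pseudocount of 2, and -0.95 to -0.91, -1.01 to -0.95 and -1.0 to -0.95 on leaving out 1 library. With a replicate block the counts were 4, 3, 5 and 1. Deviations of same-numbered libraries had a median correlation of 0.0003 (-0.08 to 0.29) over 15 pairs of groups, with 4 over 0.1. The main fit does not pair libraries by number. None of the calls named changed direction. With 2 libraries per group, responses of the size of the median standard error of 0.069 were not detectable.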
